A study of Mus musculus with 4 samples.

Results

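The genes described here encode the proteins that remove the cap of messenger RNA and degrade the RNA from its 5' end, together with the nuclear 5'-3' exonuclease. The 10 entries XRN1, XRN2, DCP1A, DCP1B, DCP2, EDC3, EDC4, DDX6, LSM2 and LSM3 were taken by name from 112302 entries in each deposited table. All 10 reached 1 RPKM (reads divided by gene model length and by the library's total) in at least 1 library, as did 42964 entries in all. RNA labelled as testis of BALB/C mice was sequenced in 4 libraries, 1 for each stage: E14 and E18, which are days of embryonic development, and postnatal ages of 3 weeks and 6 months. No treatment or mutation is named for any stage. The RNA was commercial tissue RNA, depleted of ribosomal RNA before polyadenylated RNA was isolated. The sources used here do not give the number of animals behind a library. The series concerns endonucleolytic cleavage of transcripts, and the 3' fragments of cleaved RNA are known substrates of 5'-3' exonucleases.

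In the cytoplasm, a messenger RNA that has lost its poly(A) tail is bound by a ring of LSm proteins and by PATL1, DCP2 with its activator DCP1 hydrolyses the cap, and XRN1 degrades the body of the RNA from the exposed end. EDC3, EDC4 and the helicase DDX6 assist decapping and gather with these proteins in processing bodies. Male germ cells have a related granule, the chromatoid body, in which decapping proteins are also found. In the nucleus, XRN2 degrades RNA from the 5' end after cleavage at the poly(A) site, and an LSm ring that holds LSM8 in place of LSM1 binds the U6 spliceosomal RNA.

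Reads behind the tables ranged from 33952471 at 3 weeks to 38903334 at E14, and each member had between 99 and 2074 reads in a library. Intervals given below are exact Poisson intervals for levels and exact Clopper-Pearson intervals for ratios, at 95%, and cover counting error only. There were no replicates, so no test was made, and "higher" and "lower" describe these libraries. A difference is the value of log2(RPKM + 1) for the later library minus the value for the earlier one, a scale that understates the change of low genes, and a difference of 1 or more in either direction (2-fold) is called past the limit. Fewer cells of a type and less RNA per cell cannot be told apart in bulk tissue RNA.

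The 10 genes were measured at all 4 stages, and 7 of them had their highest level at 3 weeks. DCP1B and LSM2 were highest at 6 months and DCP2 at E18, where its level did not differ from that at E14 beyond counting error (ratio 1.01, interval 0.928 to 1.10). Libraries were also rescaled in 4 other ways, by the median of ratios over all entries, by that over protein-coding genes alone, to the sum of ribosomal protein genes and to an equal total. The highest stage was the same under all 4 for XRN1, XRN2, DCP1B, DDX6, LSM2 and LSM3, but changed under at least 1 of them for DCP1A, DCP2, EDC3 and EDC4, so that between 4 and 7 genes were highest at 3 weeks. In the deposited RPKM the lowest level was at 6 months for 5 genes (XRN1, DCP1A, DCP2, EDC3 and DDX6), at E18 for 3 and at E14 for 2. The stage of the highest and lowest level was not counted over all entries. Of all entries 66.1% had a higher value at 3 weeks than at E18, and of protein-coding symbols 58.1%. At 6 months 67.3% and 65.6% had a lower value than at 3 weeks. These counts of highest and lowest stages are therefore not a result about the 10 genes as a group. Summed over the 10 genes, the level was 27.8 RPKM at E14 and 28.1 at E18, then 59.2 at 3 weeks and 38.3 at 6 months. Most of the gain from E18 to 3 weeks came from LSM3 (5.53 to 16.9 RPKM) and LSM2 (1.32 to 8.95), while DCP2 fell (3.44 to 2.71). The sum depends on the scaling of the libraries and on the gene models. The span between the highest and lowest library was widest for LSM2 (8.19-fold) and DCP1B (6.86-fold) and narrowest for EDC3 (1.42-fold) and DCP1A (1.49-fold).

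**Figure D1:**
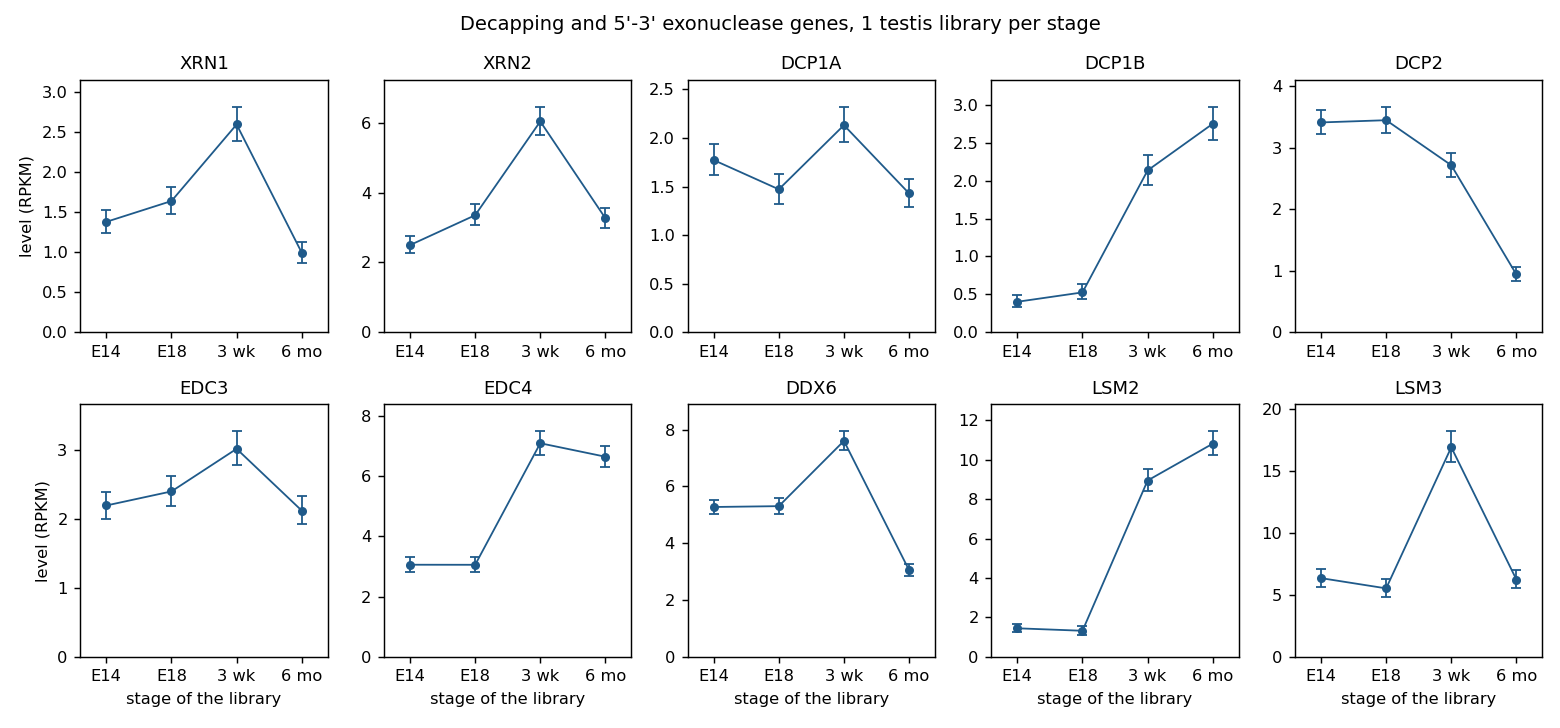
Level of each of the 10 genes (RPKM, linear axis from 0) in the libraries of E14, E18, 3 weeks and 6 months, with 1 library per stage. Bars are 95% Poisson counting intervals. LSM2 and DCP1B are highest at 6 months, DCP2 is lowest there, and LSM3 peaks at 3 weeks with 16.9 RPKM.

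XRN1, the cytoplasmic exonuclease that also clears the downstream fragments of cleaved RNA, lies on chr9:95954760-96057803. It had 1.38 RPKM at E14 and 1.64 at E18, then 2.59 at 3 weeks and 0.993 at 6 months, from 350, 366, 575 and 232 reads. The 6-month library was thus the lowest and the 3-week library the highest, with counting intervals that did not overlap those of any other stage. XRN2, the nuclear exonuclease (chr2:147012996-147078000), had 2.50, 3.36, 6.05 and 3.27 RPKM at E14, E18, 3 weeks and 6 months. Its E18 and 6-month levels did not differ beyond counting error, and both lay above E14 and below 3 weeks. The model behind XRN1 was 6529 bases long, against 18585 bases of annotated exons and 10256 in the longest transcript, so the XRN1 level is uncertain. Exons of Xrn1 overlap those of the antisense genes Gm16794 and C78334, and the handling of strand in the authors' counting is not given in the sources used here.

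DCP2, the catalytic subunit of the decapping enzyme, had 3.41 RPKM at E14 and 3.44 at E18, then 2.71 at 3 weeks and 0.937 at 6 months. Both fetal libraries were therefore high, and the 6-month library was low, with 290 reads against 796 at 3 weeks. DCP1A, its activator (chr14:30479535-30527063), had 1.77, 1.47, 2.13 and 1.43 RPKM at E14, E18, 3 weeks and 6 months. Its E18 interval overlapped those of E14 and 6 months, although the interval of the ratio of E18 to E14 excluded 1 (0.724 to 0.951). DCP1B, the paralog of DCP1A (chr6:119175253-119221616), had 0.402, 0.525, 2.14 and 2.75 RPKM at E14, E18, 3 weeks and 6 months. Its fetal intervals overlapped and lay below both postnatal ones. The promoters of this pair are shown because the paralogs had different profiles. They are RefSeq sequences on GRCm38.p6, from 250 bases before to 50 bases after the annotated start, and capitals mark matches to the motifs named further below.
Dcp1b, chr6:119175003-119175302, + strand: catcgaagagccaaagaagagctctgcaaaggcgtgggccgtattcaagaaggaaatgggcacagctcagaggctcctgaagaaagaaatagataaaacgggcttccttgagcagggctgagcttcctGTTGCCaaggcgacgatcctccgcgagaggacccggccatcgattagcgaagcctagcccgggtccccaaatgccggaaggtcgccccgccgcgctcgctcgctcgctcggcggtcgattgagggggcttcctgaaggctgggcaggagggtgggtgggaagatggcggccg
Dcp1a, chr14:30479315-30479614, + strand: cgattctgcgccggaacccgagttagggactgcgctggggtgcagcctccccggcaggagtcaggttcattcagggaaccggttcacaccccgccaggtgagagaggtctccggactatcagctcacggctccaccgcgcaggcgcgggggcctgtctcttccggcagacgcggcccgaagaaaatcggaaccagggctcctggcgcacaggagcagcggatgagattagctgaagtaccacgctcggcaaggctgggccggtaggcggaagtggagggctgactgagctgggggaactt

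EDC3, a scaffold of decapping complexes (chr9:57708540-57752499), had 2.20 RPKM at E14 and 2.40 at E18, then 3.02 at 3 weeks and 2.12 at 6 months. Its exons overlap those of Clk3 on the opposite strand. EDC4, a scaffold that stimulates DCP2 (chr8:105880881-105894908), had 3.06, 3.06, 7.09 and 6.65 RPKM at the same stages, so that the fetal levels overlapped, the postnatal levels overlapped, and all postnatal values were above all fetal ones. Its exons overlap those of Nrn1l on the same strand. DDX6, a DEAD-box helicase of translational repression and decapping (chr9:44604892-44640731), had 5.28, 5.31, 7.60 and 3.05 RPKM. The fetal libraries did not differ beyond counting error for DDX6, and the 6-month library was the lowest of the 4.

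LSM2 (chr17:34981862-34985891) and LSM3 (chr6:91515928-91522625) are subunits of both the cytoplasmic and the nuclear LSm ring. LSM2 had 1.45 RPKM at E14 and 1.32 at E18, then 8.95 at 3 weeks and 10.8 at 6 months, from 178, 143, 961 and 1225 reads. Both postnatal libraries were high and both fetal ones low. LSM3 had 6.36, 5.53, 16.9 and 6.24 RPKM at E14, E18, 3 weeks and 6 months, with overlapping intervals at the 3 stages other than 3 weeks. The gene model behind LSM2 was 3162 bases long, against 3152 bases of annotated exons and 1586 in the longest transcript. The model behind LSM3 was 1257 bases, against 2753 bases of annotated exons and 2032 in the longest transcript, so the LSM3 level is uncertain. Ratios between these genes therefore depend on the models. The length of a model cancels in the change of a ratio from stage to stage. Which reads a model takes in does not cancel, and its part in that change was not tested. An exon of Lsm3 overlaps the sense-overlapping transcript AC161456.1. The promoters of both genes are shown because they had the largest differences between E18 and 3 weeks, and RefSeq gives Lsm2 a pair of start sites.
Lsm2, upstream start, chr17:34981604-34981903, + strand: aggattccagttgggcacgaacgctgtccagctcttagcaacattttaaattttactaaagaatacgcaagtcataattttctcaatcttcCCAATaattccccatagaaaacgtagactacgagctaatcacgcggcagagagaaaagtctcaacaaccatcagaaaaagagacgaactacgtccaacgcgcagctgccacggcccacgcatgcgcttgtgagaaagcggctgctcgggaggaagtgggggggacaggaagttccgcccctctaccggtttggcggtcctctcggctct
Lsm2, downstream start, chr17:34981880-34982179, + strand: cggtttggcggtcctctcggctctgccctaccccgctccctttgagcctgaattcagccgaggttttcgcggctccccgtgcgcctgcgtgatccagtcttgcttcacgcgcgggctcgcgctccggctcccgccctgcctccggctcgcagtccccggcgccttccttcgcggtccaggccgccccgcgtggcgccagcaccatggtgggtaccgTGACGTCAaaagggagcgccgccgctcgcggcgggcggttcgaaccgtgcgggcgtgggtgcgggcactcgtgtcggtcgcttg
Lsm3, chr6:91515785-91516084, + strand: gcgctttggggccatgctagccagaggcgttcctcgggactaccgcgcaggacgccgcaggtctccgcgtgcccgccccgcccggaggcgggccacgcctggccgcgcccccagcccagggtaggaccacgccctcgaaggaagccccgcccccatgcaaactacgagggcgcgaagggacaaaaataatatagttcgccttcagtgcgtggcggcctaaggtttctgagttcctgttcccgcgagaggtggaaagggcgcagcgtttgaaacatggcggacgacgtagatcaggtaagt

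At E18 compared with E14, 0 of 10 members were past the limit in either direction. Of all 42964 entries 2.17% were higher and 1.34% lower, and of 12641 protein-coding symbols 3.54% and 1.64%. The member differences ran from -0.17 (LSM3 and DCP1A) to 0.32 (XRN2), with a median of 0.01, against 0.03 over all entries. The counting interval of the ratio excluded 1 for 3 members. XRN2 had 3.36 RPKM at E18 and 2.50 at E14 (ratio 1.34, interval 1.17 to 1.54), XRN1 had 1.64 and 1.38 (ratio 1.19, 1.02 to 1.38), and DCP1A had 1.47 and 1.77 (ratio 0.830, 0.724 to 0.951). Signs of DCP2, EDC3, EDC4 and DDX6 changed between scalings, under which their differences ran from -0.16 (DDX6) to 0.14 (EDC3).

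The fetal libraries differed in markers of other tissues. Summed RPKM of 4 cartilage markers was 0.489 at E18 and 67.6 at E14, of 5 skeletal muscle markers 44.2 and 186, and of 4 liver markers 57.7 and 296, while that of 4 kidney tubule markers was 26.1 at E18 and 1.01 at E14 and of 4 bladder markers 41.3 and 8.57. That of 4 neuron markers was 7.47 at E18 and 45.8 at E14. Much of the muscle difference came from MYLPF (10.7 RPKM at E18 and 146 at E14). ACTA1 had 12.1 and 13.3 RPKM, and CKM went the other way, with 20.4 and 15.9. Summed testis cell markers were higher at E18. Sertoli cell markers summed to 86.1 RPKM at E18, where 7 of 8 reached 1 RPKM, and 9.58 at E14, where 3 of 8 did, although SOX9 had 2.12 RPKM at E18 and 4.00 at E14. Leydig cell markers summed to 127 RPKM at E18 (5 of 6 at 1 RPKM or more) and 8.08 at E14 (4 of 6), and markers of spermatogonia and gonocytes to 10.1 (3 of 6) and 4.26 (2 of 6), with GFRA1 at 0.568 RPKM at E18 and 1.80 at E14. The part of these tissues in the fetal levels of the decapping genes was not tested.

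At 3 weeks compared with E18, LSM2, LSM3 and DCP1B were past the limit, all higher at 3 weeks, so that 3 of 10 members were higher and 0 lower. Of all entries 32.0% were higher and 10.5% lower, and of protein-coding symbols 24.1% were higher and 13.2% lower, so the share of members is near the background and is not a result about them as a group. LSM2 had 8.95 RPKM at 3 weeks and 1.32 at E18 (difference 2.10, ratio 6.77, interval 5.68 to 8.13). LSM3 had 16.9 and 5.53 RPKM (difference 1.46, ratio 3.06, interval 2.64 to 3.56), and DCP1B had 2.14 and 0.525 RPKM (difference 1.04, ratio 4.07, interval 3.31 to 5.04). The DCP1B call was lost under both medians of ratios (differences 0.81 and 0.93). That left 2 of 10 members higher, against 25.7% and 28.9% of all entries. DCP1B was the member that passed the limit most narrowly, and EDC4 the one that came closest without passing it (difference 1.00 after rounding), with 7.09 RPKM at 3 weeks and 3.06 at E18 (ratio 2.32, interval 2.10 to 2.56). By RPKM without the pseudocount, EDC4 was the additional gene past 2-fold, giving 4 of 10 higher against 40.0% of entries.

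The other 6 members had smaller differences: 0.69 for XRN2, 0.45 for XRN1 and DDX6, 0.34 for DCP1A, 0.24 for EDC3 and -0.26 for DCP2. DCP2 was the member with a lower value at 3 weeks, 2.71 RPKM against 3.44 at E18 (ratio 0.787, interval 0.717 to 0.865), a sign that turned under scaling to ribosomal protein genes. EDC3 had a difference of -0.00 under the median of ratios. The median member difference was 0.57, against 0.46 over all entries and 0.23 over protein-coding symbols. With E14 as the fetal library, an alternative chosen after seeing the data, 4 of 10 members were higher, XRN2 being added (6.05 RPKM at 3 weeks and 2.50 at E14), against 34.7% of entries. Scaling to ribosomal protein genes put 9 of 10 members past the limit, all higher, against 53.5% of all entries higher under that scaling. The split of all called entries was then 95.9% higher in place of 75.2%.

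All 8 spermatocyte markers reached 1 RPKM at 3 weeks and 2 of 8 at E18, with sums of 589 and 6.56 RPKM. Spermatid markers summed to 13.2 RPKM at 3 weeks, where 3 of 8 reached 1 RPKM, and to 2.70 at E18, where none did and ACRV1 was at 0. The sums of muscle, liver, kidney and bladder markers were each at most 1.03 RPKM at 3 weeks, where the kidney markers SLC34A1 and KAP and the bladder marker UPK3A were at 0. Blood markers summed to 46.4 RPKM at 3 weeks and 1645 at E18. The part of this shift in cell types in the differences of LSM2, LSM3 and DCP1B was not tested.

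**Figure D2:**
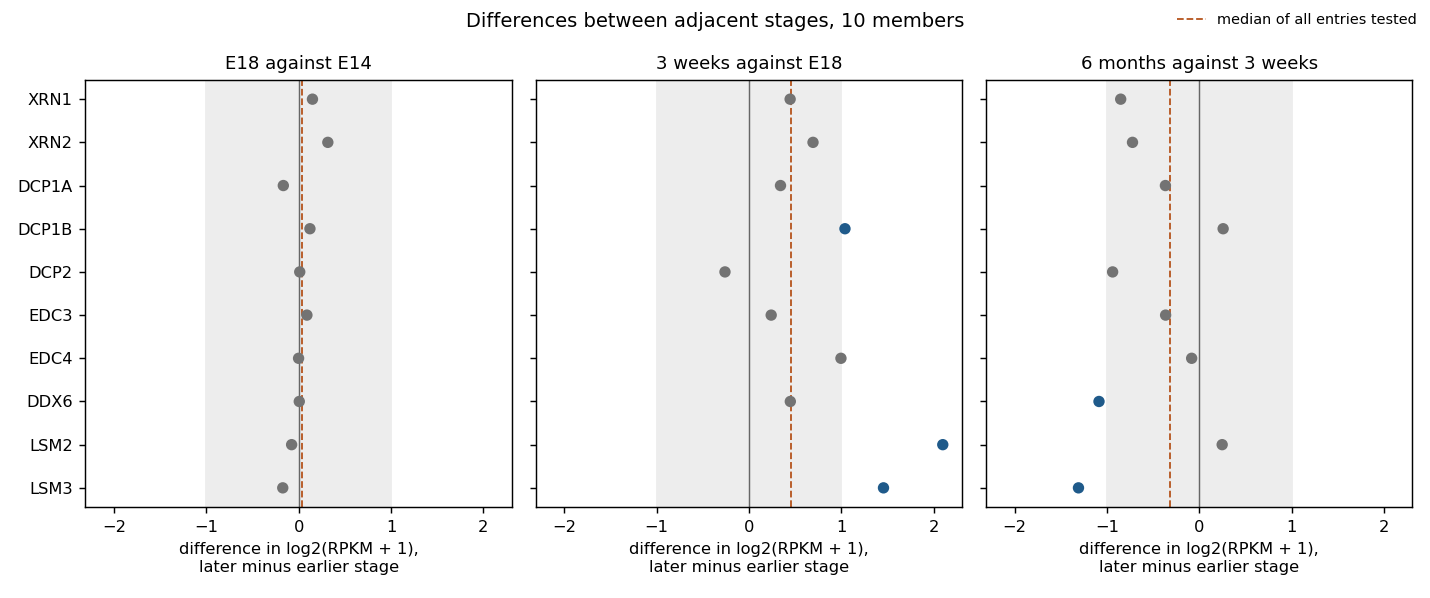
Difference in log2(RPKM + 1), later minus earlier stage, for the 10 genes in the comparisons E18 against E14, 3 weeks against E18 and 6 months against 3 weeks. Each point is 1 gene, the grey band spans less than 2-fold, blue points lie past it, and the dashed line is the median of all entries tested. LSM2 stands farthest to the right at 3 weeks (2.10), and LSM3 (-1.31) and DDX6 (-1.09) lie below the band at 6 months.

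At 6 months compared with 3 weeks, LSM3 and DDX6 were past the limit, both lower at 6 months, so that 2 of 10 members were lower and 0 higher. Of all entries 14.1% were lower and 9.73% higher, and of protein-coding symbols 7.87% were lower and 9.52% higher. LSM3 had 6.24 RPKM at 6 months and 16.9 at 3 weeks (difference -1.31, ratio 0.369, interval 0.320 to 0.424). DDX6 had 3.05 and 7.60 RPKM (difference -1.09, ratio 0.401, interval 0.371 to 0.435). DCP2 came closest to the limit without passing it, with 0.937 and 2.71 RPKM (difference -0.94, ratio 0.346, interval 0.301 to 0.396), and XRN1 had 0.993 and 2.59 RPKM (difference -0.85, ratio 0.383, interval 0.327 to 0.446). By RPKM without the pseudocount, both were also lower by more than 2-fold, giving 4 of 10 members against 34.2% of entries.

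DCP1B and LSM2 were the members with a higher value at 6 months, with differences of 0.26 (2.75 RPKM at 6 months and 2.14 at 3 weeks) and 0.25 (10.8 and 8.95 RPKM), positive under every scaling run. EDC4 had 6.65 RPKM at 6 months and 7.09 at 3 weeks, a ratio of 0.937 with an interval of 0.867 to 1.01. The remaining differences were -0.72 for XRN2, -0.37 for DCP1A and -0.36 for EDC3, of which those of DCP1A and EDC3 turned positive under the median of ratios over all entries, as that of EDC4 did under both medians of ratios and under ribosomal protein scaling. The median of the 10 was -0.54, against -0.31 over all entries and -0.22 over protein-coding symbols. Under the median of ratios, over all entries or over protein-coding genes alone, 0 of 10 members were past the limit. Of all entries 4.40% and 6.85% were then lower, and 17.7% and 14.4% higher. Of all called entries 80.1% and 67.7% were then higher, in place of 40.8%. Spermatid markers summed to 6249 RPKM at 6 months, where 8 of 8 reached 1 RPKM, and 13.2 at 3 weeks, and spermatocyte markers to 349 and 589 RPKM. Leydig cell markers summed to 553 RPKM at 6 months and 64.9 at 3 weeks, markers of spermatogonia and gonocytes to 61.1 and 137, and Sertoli cell markers to 112 and 132. Of the spermatogonia and gonocyte markers 3 of 6 reached 1 RPKM at each of these stages. Most of their sum came from DDX4 (48.6 RPKM at 6 months and 95.2 at 3 weeks) and DAZL (9.77 and 37.6). GFRA1 went the other way, with 0.518 RPKM at 6 months and 0.171 at 3 weeks. The part of these cell types in the lower levels of LSM3 and DDX6 was not tested.

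Ratios between genes of 1 library do not depend on the scaling of that library. The level of XRN1 over that of XRN2 was 0.551 at E14 and 0.488 at E18, then 0.429 at 3 weeks and 0.304 at 6 months, and the 6-month interval (0.258 to 0.356) lay below the other 3. The size of this ratio depends on the gene models, and that of XRN1 was shorter than its annotated exons. DCP1A over DCP1B was 4.41, 2.80, 0.997 and 0.519 at the same stages, with no overlap between the intervals of the postnatal stages (0.878 to 1.13 at 3 weeks and 0.455 to 0.591 at 6 months) or between these and the fetal ones. At E14 and E18 DCP1A was thus the more abundant paralog per base of model, at 3 weeks the levels did not differ beyond counting error, and at 6 months DCP1B was the more abundant. The summed level of DCP1A and DCP1B over that of DCP2 was 0.638, 0.580, 1.57 and 4.46. LSM2 over LSM3 was 0.228 (interval 0.188 to 0.274), 0.239 (0.193 to 0.295), 0.528 (0.479 to 0.583) and 1.73 (1.52 to 1.98).

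The ring-specific subunits were compared likewise. LSM1, of the cytoplasmic ring, had 0.974 RPKM at E14 and 0.890 at E18, then 1.87 at 3 weeks and 0.992 at 6 months. LSM8, of the nuclear ring, had 2.02, 2.34, 2.22 and 0.925 RPKM. LSM1 over LSM8 was 0.482, 0.380, 0.843 and 1.07, with postnatal intervals (0.725 to 0.981 and 0.863 to 1.34) above the fetal ones (0.406 to 0.572 and 0.317 to 0.456). LSM8 was read from the entry with its older symbol NAA38, as RefSeq lists it, and the model behind LSM1 was 6305 bases long, against 3093 bases of annotated exons, so the LSM1 level is uncertain.

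**Figure D3:**
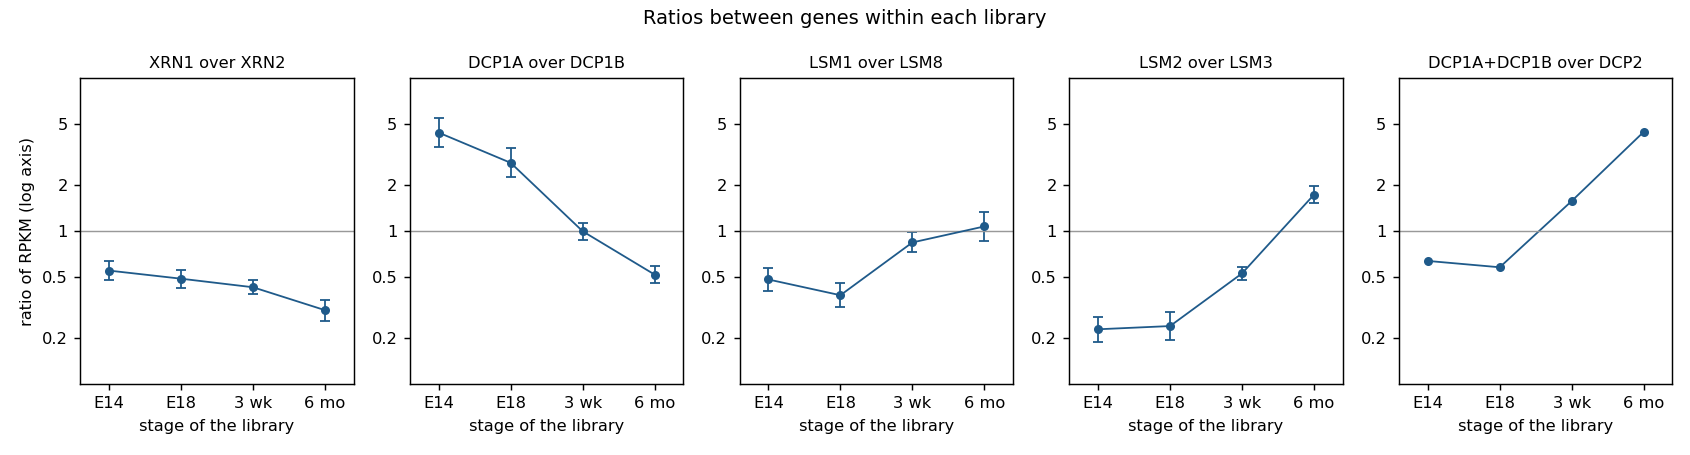
Ratio of RPKM between 2 genes (or the sum of DCP1A and DCP1B over DCP2) within each library, on a log axis, at E14, E18, 3 weeks and 6 months. Bars are 95% Clopper-Pearson counting intervals, not computed for the summed ratio, and the grey line marks 1. DCP1A over DCP1B runs from 4.41 to 0.519 and LSM2 over LSM3 from 0.228 to 1.73 along the stages.

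The order of the levels differed between stages. At E14 and E18 LSM3 and DDX6 led and DCP1B was last. At 3 weeks LSM3 led, LSM2 was next, and DCP1B and DCP1A were last with overlapping intervals. At 6 months LSM2 led, EDC4 and LSM3 followed with overlapping intervals (6.65 and 6.24 RPKM), and XRN1 and DCP2 were last, again overlapping. Of the 9 neighbour pairs in the order, 4 overlapped at E14 and 5 at E18, then 4 at 3 weeks and 4 at 6 months.

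Beyond the 10 members, 22 other genes of decapping and 5'-3' decay were listed, of which all were in the tables and 20 reached 1 RPKM (LSM5 and PATL2 did not). Between E18 and E14, 0 of 20 were past the limit (median 0.08, against 0.03 over all entries). At 3 weeks against E18, 2 of 20 were higher, against 32.0% of all entries and 24.1% of protein-coding symbols, and 1 lower, against 10.5% and 13.2%. The median of the 20 was 0.17, against 0.46 over all entries and 0.23 over protein-coding symbols. The higher ones were LSM14B, an RNA-binding protein of stored messenger RNA (8.53 RPKM at 3 weeks and 1.83 at E18, difference 1.75), and the helicase HELZ, a partner of the deadenylase complex (5.31 and 2.15 RPKM, ratio 2.46), which lay at the limit and was not past it under either median of ratios. The lower one was NBDY, a microprotein that binds EDC4 (1.28 and 4.07 RPKM, difference -1.16), read from the entry that RefSeq gives as its synonym. The NBDY values rest on 28 reads at 3 weeks and 90 at E18, in a model of 646 bases against 1971 bases of annotated exons. At 6 months against 3 weeks, 0 of 20 were higher, against 9.73% of all entries, and 1 lower, against 14.1%, with a median of -0.71 against -0.31 over all entries. The lower gene was PNRC2, which links decapping to nonsense-mediated decay in human cells (3.98 and 10.1 RPKM, difference -1.16), a call that was lost under both medians of ratios.

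PATL1, the decapping activator that binds the LSM1 ring, had 0.724 RPKM at E14 and 0.762 at E18, then 1.23 at 3 weeks and 0.293 at 6 months. At 6 months its ratio to 3 weeks was 0.237 (interval 0.167 to 0.330), and its difference of -0.79 was kept under the limit by the pseudocount. DXO, which removes incomplete and other unusual caps, was singled out after its values were seen as the 1 gene of the 20 with a higher value at 6 months than at 3 weeks, 8.63 RPKM against 4.70; under both medians of ratios it was past the limit. For the deadenylases and their partners 5 of 15 genes were higher at 3 weeks than at E18, and for the exosome and its cofactors, which degrade from the 3' end, 3 of 17. With 32.0% of all entries and 24.1% of protein-coding symbols higher, neither count is a result about these lists.

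**Figure D4:**
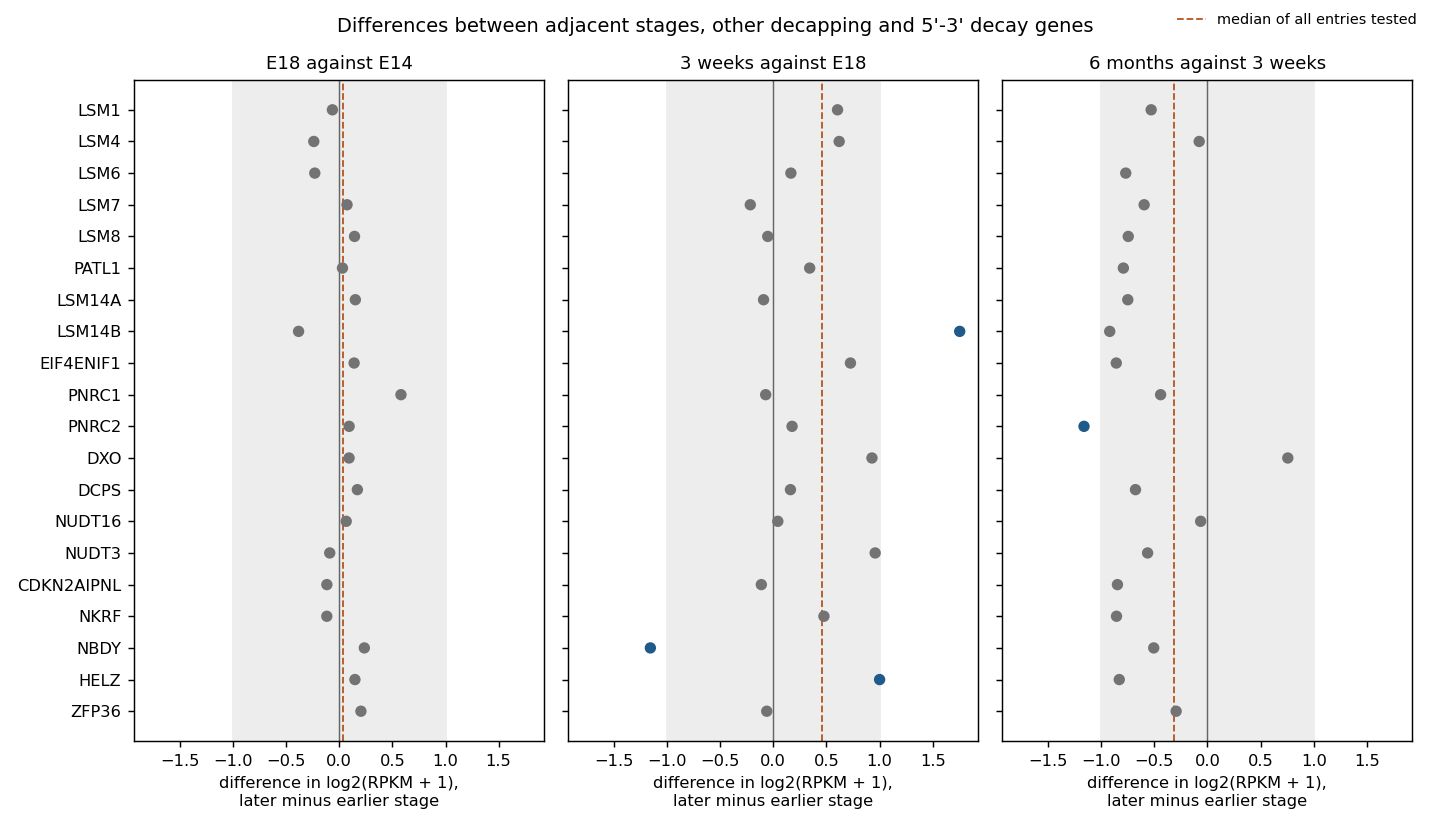
Difference in log2(RPKM + 1), later minus earlier stage, for the 20 measured genes of decapping and 5'-3' decay outside the 10 members, in the 3 comparisons of adjacent stages. Each point is 1 gene, the grey band spans less than 2-fold, blue points lie past it, and the dashed line is the median of all entries tested. At 6 months 19 of 20 points lie left of 0, with DXO (0.76) on the right, and 67.3% of all entries were below 0; under the median of ratios 12 of 18 measured genes and 42.5% of entries were below 0.

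Profiles like those of the exonucleases and of DDX6 were sought among 12640 other protein-coding symbols, by Euclidean distance of log2(RPKM + 1) over the 4 libraries. CCDC59 (distance 0.0820) and TPM3-RS7 (0.104) were nearest to XRN1, VPS35 (0.118) and YIPF4 (0.150) to XRN2, and COPB2 (0.103) and ABI1 (0.161) to DDX6. CCDC59 had 1.51, 1.66, 2.53 and 0.978 RPKM from E14 to 6 months, beside 1.38, 1.64, 2.59 and 0.993 for XRN1. TPM3-RS7 is a copy of a tropomyosin gene and may share reads with it.

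Promoters of 8 members, 9 sequences in all, were searched on both strands for 7 motifs of factors active in the testis or common in promoters. The cyclic AMP response element TGACGTCA was found in 1 of the 9, at -34 from the downstream start of Lsm2, as against 1.79% of 32851 RefSeq promoters. Its shorter core TGACG, which the full element contains on both strands, was found in that promoter and in that of Xrn2 (at -4), and in 20.8% of all. The RFX element GTTGCC was found in 1, at -122 in Dcp1b (12.5% of all), the CCAAT box in the upstream promoter of Lsm2 (at -159) and in Edc4 (at -163; 37.4% of all), and the E box CACGTG in Xrn2 (at 21; 7.15% of all). MYB (AACNGTT, 4.45% of all) and the NRF1 element (0.971% of all) had no match in these windows. The printed promoters of Dcp1a and Lsm3 held no match to any of the 7. A match is a description of the letters, and the tables do not show which start site was used.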

How the data were processed

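RNA from 4 libraries labelled mouse testis was analysed, 1 per stage, from the RPKM that the authors deposited per entry. TopHat2 was used with build mm10, per the submitters' processing notes. Polyadenylated RNA was isolated after ribosomal RNA depletion and a directional library kit was used, per the labels' protocols. The sources used here do not give the counter, its annotation or the treatment of strand and multiply mapped reads.

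The total of reads in each library was recovered as the most frequent RPKM times length over single-exon genes of GENCODE vM21 (GRCm38), counted as 1 read. Whole reads and a shared model length, up to 200000 bases at a relative tolerance of 1e-09, were then found for each gene. A factor common to all 4 libraries would be lost in this step. Model lengths equalled the annotated exon length for EDC3, EDC4 and DDX6. At these depths 3 reads in a model of 1 kb correspond to 0.0771 RPKM at E14 and 0.0876 at E18, then 0.0884 at 3 weeks and 0.0838 at 6 months. PCR copies are counted as separate reads. In a search of the longest coding transcript of each member with BLAST 2.17.0 at 95% identity, GENCODE transcripts of genes that do not overlap a member matched one over at most 125 bases.

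An entry was kept where any library reached 1 RPKM, with a pseudocount of 1 and a limit of 2-fold. With 1 library per stage no model was fitted. Members and lists were chosen with earlier results of these data known. Named were all members, pathway genes past the limit with LSM1, LSM8 and PATL1, and the 2 nearest profiles of XRN1, XRN2 and DDX6. Protein sequences were not used here. The procedure was tested on simulated reads with counting error only. That test does not cover spread between animals or mismatched gene models. Alternatives were other pseudocounts, filters, limits and scalings. Python 3.11.15, numpy 2.4.6, pandas 2.3.3 and scipy 1.17.1 were used.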

Additional observations from a re-analysis of the deposited data

How the results depend on the processing

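No paired analysis was possible because each stage has 1 library. No called member difference changed sign under any alternative. LSM2 and LSM3 stayed past 2-fold at 3 weeks under every other pseudocount, filter, scaling and fetal library run, and DCP1B in 7 of 9 of these. At 3 weeks against E18 (3 members higher, with 2 pathway genes higher and 1 lower), a 4-fold limit left 1 member and 0 and 0 pathway genes. Of all entries 16.1% were higher and 1.98% lower at that limit. Pathway counts of higher genes were 4 with a pseudocount of 0.1, 6 with none, 4 at an equal sum and 1 under either median of ratios. Shares of all entries higher were 45.7%, 40.0% and 36.7% under the first 3 of these. Under the medians of ratios over all and over protein-coding genes they were 25.7% and 28.9%. Pathway counts of lower genes were 0 at a minimum of 5 RPKM, at an equal sum, under ribosomal protein scaling and with E14 as the fetal library. Of all entries 14.9%, 8.08%, 2.30% and 10.1% were lower under these settings. Ribosomal protein scaling gave 9 members and 11 pathway genes higher, against 53.5% of all entries. An equal sum gave 4 members higher, against 36.7%. At 6 months against 3 weeks (2 members and 1 pathway gene lower), pseudocounts of 0.1 and none each gave 4 members, with 8 and 9 pathway genes. Of all entries 31.0% and 34.2% were then lower. The 4-fold limit and both medians of ratios gave 0 and 0, and both medians of ratios put 1 pathway gene, DXO, higher. Shares of all entries lower were 1.80% at the 4-fold limit and 4.40% and 6.85% under the medians of ratios. Under those medians 17.7% and 14.4% of all entries were higher. Ribosomal protein scaling gave 3 pathway genes lower, against 14.2% of all entries. An equal sum gave 3 members lower, against 17.0%. The cause of these changes was not tested. Median shifts over all entries, log2, were 0.17, -0.23, 0.62 and -0.11 at 3 weeks against E18 under equal sum, median of ratios, ribosomal protein and protein-coding scaling, and -0.07, 0.43, 0.03 and 0.28 at 6 months against 3 weeks. At E18 against E14 all counts stayed at 0, while 48.0% and 46.6% of called entries were higher under the medians of ratios over all and over protein-coding genes, in place of 61.9%. Leaving E14 out of the filter changed no count of calls. Intervals cover counting error only, so spread between animals is unknown.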

Other observations

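Other genes with an LSm domain, outside rings of decapping and of U6 RNA, were looked at after the other values had been seen. LSM10 and LSM11 belong to the U7 particle, which processes the 3' ends of replication-dependent histone messenger RNA. LSM11 had 1.36 RPKM at E14 and 1.01 at E18, then 0.347 at 3 weeks and 0.342 at 6 months, whereas LSM10 had 2.43, 3.16, 3.19 and 4.00 RPKM. LSM11 was thus lower after birth, with 76 and 79 reads at 3 weeks and 6 months against 342 and 223 at E14 and E18, and LSM10 was not. LSM12 had 6.81, 6.91, 16.0 and 10.9 RPKM at the 4 stages. The entry LSMD1, an older symbol of Naa38, a subunit of an amino-terminal acetyltransferase, had 7.42, 6.93, 13.6 and 32.5 RPKM.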
